A study of Homo sapiens with 42 samples.

Results

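The clustered protocadherins were followed across 42 RNA-seq libraries of a human renal carcinoma line in which the hypoxia-inducible factors (HIFs) had been tagged or overexpressed. Members were taken by symbol as every PCDHA, PCDHB and PCDHG gene of the count files that is not a pseudogene. That gave 53 of the 60609 genes listed, with 15 in the alpha, 16 in the beta and 22 in the gamma cluster. All lie on the plus strand of chromosome 5 (hg38), the alpha genes at chr5:140786136-141012347, the beta genes at chr5:141051374-141249365 and the gamma genes at chr5:141330514-141512977.

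Clustered protocadherins are cadherin-like adhesion proteins best known from neurons, where each cell expresses a small choice of isoforms and the resulting surface code lets neurites of the same cell recognise each other. Every isoform has its own promoter and a large variable exon. In the alpha and gamma clusters the variable exon is spliced to constant exons that all isoforms of the cluster share, while most beta genes consist of the variable exon alone. Promoter choice is known to depend on CTCF, cohesin and DNA methylation, and the last gamma isoforms, the C types, are regulated apart from the others.

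All lines derive from 786-O, a clear cell renal carcinoma line without functional VHL, so that HIF-2α is stable in normal oxygen, and it makes no functional HIF-1α. The study asked how the HIF-α subunits, which pair with HIF-1β to bind DNA, reach their sites through their structured and disordered regions. The first batch held 3 libraries each of unedited cells (WT), of 2 knock-in (KIN) lines and of 6 transgene lines. In the second there were 3 libraries of WT cells and 3 of each of 4 transgene lines.

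HIF-1β KIN and HIF-2α KIN carry V5 and HaloTag sequences fused homozygously to the N terminus of the endogenous protein. Each is 1 clone (A21, the HIF-1β clone, and A31, the HIF-2α clone), so that the tag and the clone cannot be told apart. In the transgene lines an L30 promoter drove a Halo-tagged protein integrated with PiggyBac, and cells were selected with puromycin. Those of the first batch express HIF-1α or HIF-2α, a form of either that is defective in DNA contact (R30E in HIF-1α, R27E in HIF-2α), or the double mutants HIF-1αDM (R170A and V191D) and HIF-2αDM (R171A and V192D), which are impaired in pairing with HIF-1β. The titles name the last line as a HIF-2α mutant, while its genotype label places the same changes in HIF-1α. In the second batch HIF-1α and HIF-2α were set beside 2 chimeras. In HIF-2α/1α the disordered part of HIF-1α follows the N-terminal, structured part of HIF-2α. In HIF-1α/2α the parts are exchanged. Transgene lines also keep the endogenous HIF-2α of their host.

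A library of the first batch had 42377599 to 101186554 reads counted in genes, and a library of the second 76366799 to 109642159. HIF1A was higher than in WT in the HIF-1α lines (log2 change 3.65 and 5.49 in the first and second batch), and EPAS1, which encodes HIF-2α, was higher in the HIF-2α lines (1.62 and 1.75). HIF1A was also higher in HIF-2α (1.91 and 1.67) and in both chimeras (5.04 in HIF-2α/1α and 5.05 in HIF-1α/2α), and EPAS1 in HIF-1α/2α (2.03). Among the mutant lines HIF1A was higher in HIF-1α R30E (3.37) and HIF-1αDM (3.21), and EPAS1 in HIF-2α R27E (1.97) and HIF-2αDM (1.75). HIF1A was not called in HIF-2αDM, the line whose title and genotype label differ. EPAS1 was lower in the HIF-2α KIN clone (-1.23). PAX8, a renal lineage marker, was detected in every group, as were the other 6 genes listed for this carcinoma. The 4 leukocyte markers summed to at most 18.5 normalized counts in any library. The 8 neuron markers summed to between 1790 and 3620 in the WT libraries of the first batch, 1490 and 3090 in the HIF-1β clone and 1790 and 3750 in the HIF-2α clone, and ELAVL4, STMN2 or ELAVL3 was at 0 in some groups. In the second batch they summed to 1210 to 1280 in WT, 1510 to 1840 in HIF-2α and 1170 to 1440 in the other lines. SNAP25 was lower in HIF-1β KIN, RBFOX3 was higher in HIF-2α KIN, HIF-2α of both batches and HIF-1α/2α, and MAP2 was higher in HIF-1α, HIF-2α and HIF-2α/1α of the second batch. The 5 fibroblast markers summed to 657 to 1080 in WT, 1530 to 2290 in HIF-1α and 1460 to 2480 in HIF-2α of the first batch, with DCN at 0 in all of these. Their sums in the second batch were 691 to 926 in WT, 987 to 1390 in HIF-1α, HIF-2α and HIF-2α/1α and 499 to 656 in HIF-1α/2α. COL1A1 was higher in HIF-1α of the first batch, HIF-2α of both and HIF-2α/1α, and COL3A1 in HIF-2α of the second batch and both chimeras, whereas LUM was lower in HIF-2α of the first batch and in all 4 lines of the second. The part of either marker list in the results below was not tested.

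Members took few of these reads. Member reads came to 5142 to 10983 for libraries of the first batch and 5702 to 11386 for those of the second, of which PCDHGC3 alone took 73.3% to 91.9% and 76.6% to 89.0%. The beta genes together had 197 to 830 reads in a library of the first batch and 275 to 1142 in those of the second. Counting also shapes what can be seen. The authors' counter dropped every read that lay on an exon of more than 1 gene, so reads on the constant exons of the alpha and gamma clusters are missing and each gamma isoform is measured over its variable exon. The countable length, meaning exonic bases covered by no other listed gene, was 2041 to 5752 bases in the gamma cluster and 2301 to 7872 in the beta cluster. It fell to 7 bases for PCDHA1, the smallest in the alpha cluster. Only uniquely mapped reads were counted, and the beta genes are close copies of each other, so a read shared by copies is lost. Strand was not used, so reads on the PCDHB2 bases that PCDHB1-AS1 also covers are lost as well, which leaves 2301 of 4098 exonic bases countable.

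The promoters of the beta genes share an octamer that those of the other clusters lack. RefSeq promoter entries (GRCh38.p14, 250 bases before to 50 after the start) were given for 47 of the 53 members. The octamer GGTGGCGC, picked after the member sequences had been looked at, was searched on both strands. It lay on the plus strand in 13 of 14 beta promoters, PCDHB1 being without it, at 2 to 84 bases before the start. It was found in 0 of the 13 alpha and 0 of the 20 gamma genes and in 2.23% of all 35116 promoter entries. Stretches of 36 bases are shown in capitals at the octamer for the 3 beta genes with the highest level in WT (PCDHB2, PCDHB13, PCDHB14), for PCDHB9 and PCDHB16, which were higher in many lines, and for PCDHB4 and PCDHB15, which passed the test against WT in no line.
PCDHB2, chr5:141094541-141094576: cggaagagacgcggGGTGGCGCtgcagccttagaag
PCDHB13, chr5:141213862-141213897: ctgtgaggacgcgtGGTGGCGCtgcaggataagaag
PCDHB14, chr5:141223260-141223295: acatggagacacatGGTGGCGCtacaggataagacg
PCDHB9, chr5:141187071-141187106: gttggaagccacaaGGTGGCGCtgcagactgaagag
PCDHB16, chr5:141182307-141182342: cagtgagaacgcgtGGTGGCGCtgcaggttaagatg
PCDHB4, chr5:141121720-141121755: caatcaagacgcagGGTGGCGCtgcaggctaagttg
PCDHB15, chr5:141245311-141245346: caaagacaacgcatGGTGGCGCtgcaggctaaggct
PCDHB15 passed no test but lay above the highest WT library in 10 of 18 transgene libraries of the first batch and 11 of 12 of the second. Its levels were near the floor, with 1, 0 and 0 reads in WT of the second batch. The share of all genes above WT in this way was not computed, and no rise is read from these counts. A second octamer, GCCGCTGT, chosen in the same way, was in 11 of the 20 gamma genes, in no other member and in 1.63% of all entries. ACGTG is part of the TACGTG site that the paper gives for HIF dimers. It was in 5 of 13 alpha, 2 of 14 beta (PCDHB5 and PCDHB16) and 3 of 20 gamma genes, against 21.4% of all entries. Other forms of the site were not searched, so these counts do not show which promoters lack a HIF site. No promoter entry was given for PCDHA3, PCDHA13, PCDHB6, PCDHB11, PCDHGA12 and PCDHGC5.

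In WT cells the gamma cluster was read almost wholly as PCDHGC3, the beta cluster as a mixture led by PCDHB2, PCDHB13 and PCDHB14, and the alpha cluster hardly at all. Levels between genes were compared as reads per kilobase of countable exon, scaled to library size (RPKM). PCDHGC3, a C-type gamma isoform known to be made outside the nervous system too, stood at 29.0 ± 1.96 RPKM (SD, n = 3) in WT of the first batch and 23.4 ± 0.439 in WT of the second. The next gamma isoform, PCDHGB7, was at 0.466 ± 0.0828 and 0.424 ± 0.0577 RPKM, so PCDHGC3 made up 93.6% ± 0.634 and 92.5% ± 0.413 of the summed gamma level.

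The leading beta genes did not keep a firm order. In the first batch PCDHB2 was at 0.212 ± 0.0441, PCDHB13 at 0.19 ± 0.0741 and PCDHB14 at 0.149 ± 0.058 RPKM, and these neighbours differed by less than their SDs. In the second batch PCDHB13 led at 0.298 ± 0.049, with PCDHB14 at 0.178 ± 0.0477 and PCDHB2 at 0.167 ± 0.0277. The batches differ in extraction and library kits, so that no level was compared across them.

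Alpha isoforms were at the limit of detection. No read fell on 8 of the 15 in any of the 42 libraries, the largest count of an alpha gene in a library was 10, and all alpha reads came to 77 of 332519 member reads. PCDHA7 had the highest alpha level in WT, at 0.00239 RPKM in the first and 0.00746 in the second batch, followed by PCDHAC2 (0.00107) and PCDHA10 (0.000362). The alpha sum passed a floor of 3 counts in 9 of the 42 libraries, and no choice among alpha isoforms could be described at this depth.

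Genes entered a test when their mean normalized count in a batch was at least 0.5. In the first batch 37 members passed, made up of 15 beta, 21 gamma and 1 alpha gene, and in the second 39, with 3 alpha genes. PCDHB1 was below this level in both batches, PCDHGB4 in the first and PCDHGB5 in the second. A gene was called when edgeR's quasi-likelihood test gave an adjusted p of at most 0.01 (Benjamini-Hochberg) and the fold change was at least 2. Counts at an unadjusted p under 0.05 are given below without the share over all genes, and are not read as a result about the members. Normalized counts below are scaled by library size within a batch. As the RNA came from whole cultures, more cells using an isoform and more RNA of it per cell cannot be told apart.

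PCDHB2 (ENSG00000112852.7, chr5:141094606-141098703) was the only member that the main edgeR fit called in each knock-in clone, and it was higher. With DESeq2, or with a block by replicate number, more members were called, as given below. The normalized counts of PCDHB2 in the WT libraries were 29.7, 40.6 and 28.1. The HIF-1β KIN libraries had 131, 151 and 88.9, and those of HIF-2α KIN 133, 110 and 87.9. Every library of either clone lay above every WT library. The log2 change was 1.91 (SE 0.37, edgeR adjusted p = 0.00206) in the HIF-1β clone and 1.75 (SE 0.371, adjusted p = 0.00195) in the HIF-2α clone. The WT libraries of both comparisons are the same.

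PCDHB2 was thus 1 of 37 tested members called in each clone, where 0.393% of the 23410 genes tested were called higher in the HIF-1β clone and 2.35% in the HIF-2α clone. In the HIF-2α clone 1 call of 37 is near that share, and the count there is not read as a result about the members. The call is close to its limit. In HIF-1β KIN the adjusted p was 0.0169 without WT replicate 1, 0.0202 without WT replicate 3 and 0.0146 without HIF-1β KIN replicate 2. In HIF-2α KIN it was 0.0145 and 0.0167 without the same WT replicates and 0.0133 without HIF-2α KIN replicate 1. The log2 change stayed between 1.59 and 2.11 in all of these fits.

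**Figure D1:**
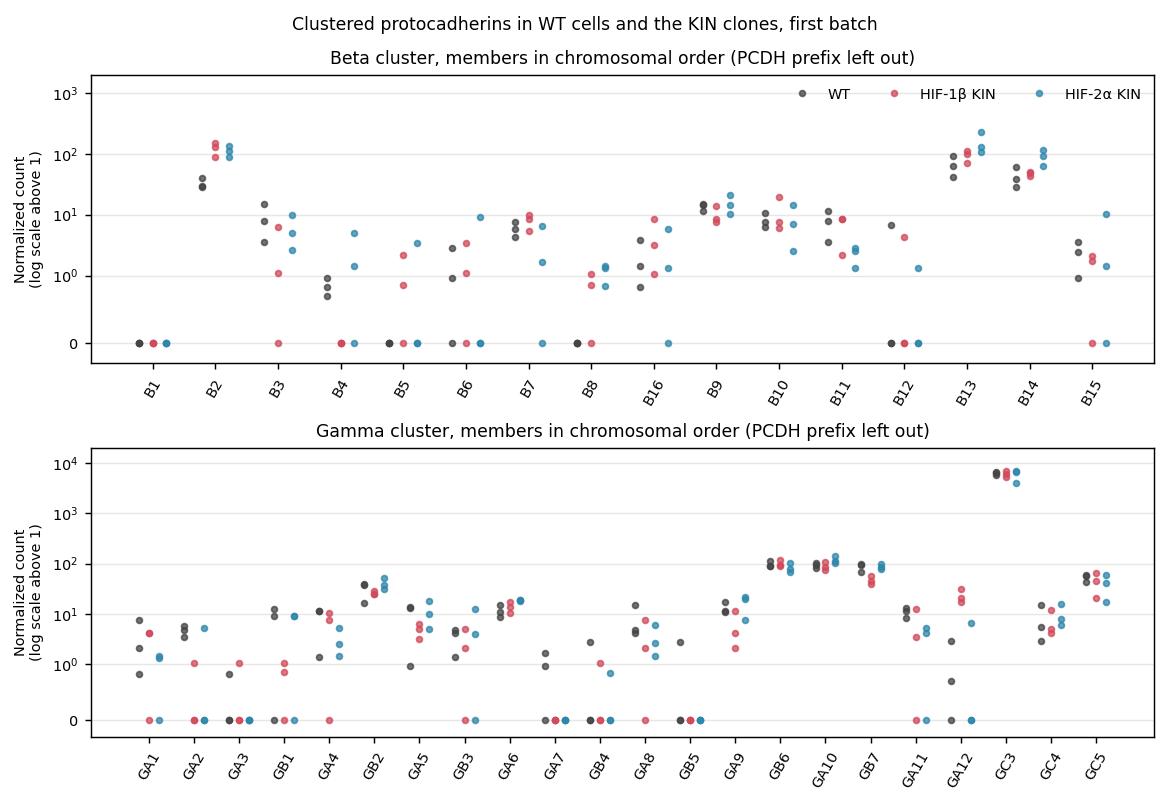
Normalized counts of the beta (top) and gamma (bottom) members in each library of WT and the knock-in clones of the first batch, on an axis that is logarithmic above 1, with genes in chromosomal order. The PCDHB2 points of both clones lie at 87.9 to 151, above the 28.1 to 40.6 of WT, while PCDHGC3 lies between 4060 and 7060 in all 9 libraries.

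The remaining beta genes were less clear. PCDHB13 had 61.9, 90.9 and 40.8 normalized counts in WT, 99.0, 112 and 69.2 in the HIF-1β clone and 130, 227 and 106 in the HIF-2α clone. The HIF-2α KIN libraries lay above all WT libraries, and the log2 change of 1.25 had an adjusted p of 0.0169 in edgeR. PCDHB14 had 38.0, 61.0 and 28.8 in WT, 43.0, 50.0 and 47.8 in the HIF-1β clone and 91.6, 116 and 63.4 in the HIF-2α clone, where the log2 change was 1.08 (adjusted p = 0.0293). Same-numbered libraries of WT and each clone deviated together, and in the fit blocked by replicate number both genes were called beside PCDHB2 in HIF-2α KIN, making 3 members. In HIF-1β KIN the block gave 2, PCDHB2 and PCDHGA12.

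PCDHGA12, the last of the A-type gamma isoforms, was singled out after its values were seen. Its normalized counts were 20.4, 30.9 and 17.1 in HIF-1β KIN. WT had 0, 2.9 and 0.703 and HIF-2α KIN 0, 0 and 6.76. The HIF-1β KIN libraries stood above all 6 of these. Its log2 change of 4.19 against WT (SE 1.08) missed the threshold with an edgeR adjusted p of 0.0276, and passed it with the replicate block (adjusted p = 0.0057) and with DESeq2 (adjusted p = 0.00237).

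PCDHGC3 was called in neither clone. Its normalized counts were 5840, 6650 and 6490 in WT, 5300, 6850 and 6080 in the HIF-1β clone and 6620, 7060 and 4060 in the HIF-2α clone, and the groups overlapped. The log2 change was -0.06 (95% interval -0.38 to 0.27) in the HIF-1β clone and -0.10 (-0.42 to 0.23) in the HIF-2α clone. The median log2 change of the tested members was -0.23 in HIF-1β KIN, against -0.03 over all genes tested. For HIF-2α KIN the same medians were 0.08 and -0.04. For beta genes the medians were 0.24 and 0.79, and for gamma genes -0.38 and -0.17.

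The make-up of the beta cluster was less even in the clones than in WT. PCDHB2 was the beta gene called in both, while 9 and 10 of the 15 tested beta genes had a positive log2 change in HIF-1β KIN and HIF-2α KIN. PCDHB2 was 27.9% ± 3.37 of the summed beta RPKM in WT, 54.9% ± 4.14 in the HIF-1β clone and 42.7% ± 6.55 in the HIF-2α clone. PCDHB14 took 18.9% ± 2.16, 11.7% ± 2.54 and 18.5% ± 1.49 of it, and PCDHB9 6.78% ± 2.28, 2.57% ± 0.821 and 3.24% ± 0.567. The summed beta level itself was 0.773 ± 0.213 RPKM in WT, 1.45 ± 0.282 in the HIF-1β clone and 1.69 ± 0.375 in the HIF-2α clone.

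The evenness was put in a single figure as the effective number of isoforms, the exponential of the Shannon entropy of their shares, which equals the number of isoforms when all are equal. For beta it was 6.86 ± 0.145 in WT, 4.26 ± 0.537 in the HIF-1β clone and 4.52 ± 0.183 in the HIF-2α clone. The 6 knock-in libraries lay between 3.93 and 4.88 and the 18 transgene libraries of the first batch between 5.28 and 7.73, without overlap. Lower evenness than in WT was not particular to the clones. HIF-1α R30E (5.28 to 6.14) and HIF-1αDM (5.28 to 5.89) also lay below the WT libraries (6.69 to 6.95), while the other transgene lines overlapped with WT. PCDHB2 carries the smallest countable length of the beta genes and so weighs more on this scale. That length rests on a later annotation release than the one counted on. With shares taken from reads, with no correction for length, the knock-in libraries ran from 4.18 to 5.52 and the transgene libraries from 4.82 to 7.47, and these ranges overlapped. The WT libraries held 197 to 261 beta reads and the knock-in libraries 295 to 353, and the effective number rests on those few reads.

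The make-up was also compared between pairs of libraries. The share of the beta level that would have to be moved between isoforms to turn a library into another averaged 13.4% ± 3.71 (SD over pairs) between replicates of a group. It was 29.4% ± 3.81 between HIF-1β KIN and WT and 21.5% ± 3.4 between HIF-2α KIN and WT. The clones differed from each other by 19.4% ± 6.41, and the transgene lines of the first batch from WT by 12.9% to 17.0% on average. In the second batch replicates differed by 12.8% ± 3.73, and the transgene lines from WT by 17.3% to 21.9% on average. For gamma the effective number was 1.46 ± 0.0519 in WT, 1.39 ± 0.017 in the HIF-1β clone and 1.49 ± 0.0976 in the HIF-2α clone, and with PCDHGC3 left out 9.26 ± 0.672, 8.69 ± 0.982 and 8.35 ± 0.913, with overlap between WT and HIF-2α KIN in both.

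**Figure D2:**
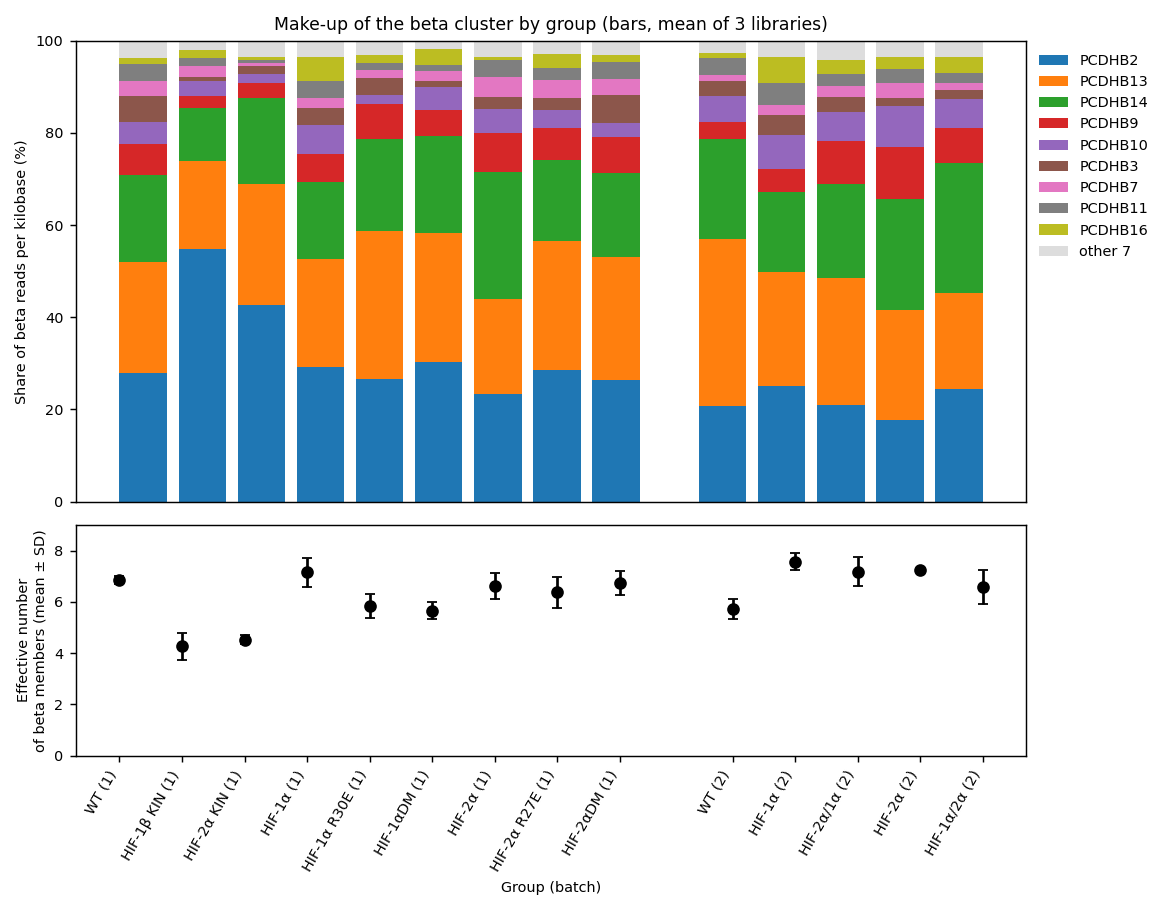
Mean share of the beta reads per kilobase taken by each isoform (stacked bars, percent) and effective number of beta members (points, mean ± SD of 3 libraries) in each group of both batches. PCDHB2 takes 54.9% in the HIF-1β clone and 42.7% in the HIF-2α clone against 27.9% in WT of the first batch, and the effective numbers of the clones are 4.26 and 4.52 against 6.86.

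The knock-in clones were next set against the mean of the 6 transgene lines of the first batch. Here PCDHB2 was not called. It ran from 87.9 to 151 normalized counts in the 6 knock-in libraries and from 40.0 to 190 in the 18 transgene libraries, of which 17 lay above the highest WT library. The log2 difference was 0.46 (95% interval -0.05 to 0.97, edgeR adjusted p = 0.354) in the HIF-1β clone and 0.30 (-0.22 to 0.82, adjusted p = 0.544) in the HIF-2α clone.

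The members called here were other isoforms, all lower in the clones than in the transgene lines. WT is not part of this comparison, and against WT 0 members were called lower in either clone. In the WT libraries PCDHB14 ran from 28.8 to 61.0 normalized counts, PCDHB9 from 11.6 to 14.8 and PCDHGB7 from 69.6 to 98.7. PCDHB11 ran from 3.51 to 11.6 there and PCDHGC5 from 42.9 to 60.4. In HIF-1β KIN 3 members were lower and 0 higher, where 2.51% of genes tested were lower and 0.457% higher. PCDHB9, with 14.0, 8.51 and 7.69 normalized counts in this clone and 11.7 to 77.4 in the transgene libraries, differed by -2.02 (SE 0.441, adjusted p = 0.00303). PCDHGB7, with 58.1, 44.7 and 40.2 against 47.2 to 239, differed by -1.36 (SE 0.299, adjusted p = 0.00325). PCDHB14, with 43.0, 50.0 and 47.8 against 56.7 to 248, was the member whose libraries did not overlap with any transgene library (log2 difference -1.34, SE 0.268, adjusted p = 0.00122).

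In HIF-2α KIN 2 members were lower and 0 higher, where 2.75% of genes were lower and 2.14% higher. PCDHB11 had 1.31, 2.86 and 2.54 normalized counts in this clone, from 1, 2 and 3 reads, and 1.99 to 45.5 in the transgene libraries, so that its fitted log2 difference of -2.62 (SE 0.641, adjusted p = 0.00495) rests on few reads. PCDHGC5, with 41.9, 58.5 and 17.7 against 45.1 to 257, differed by -1.53 (SE 0.365, adjusted p = 0.00403). The calls of PCDHB14, PCDHGB7 and PCDHB11 were lost in all 3 fits that left out a knock-in library, and those of PCDHB9 and PCDHGC5 in 2 of 3. The highest adjusted p was 0.017 for PCDHB14 (without HIF-1β KIN replicate 1), 0.0358 for PCDHB9 and 0.0359 for PCDHGB7 (without HIF-1β KIN replicate 2), 0.0434 for PCDHB11 (without HIF-2α KIN replicate 1) and 0.0546 for PCDHGC5 (without HIF-2α KIN replicate 3).

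Between the clones themselves edgeR called 0 members, where 1.58% of genes were higher in HIF-2α KIN than in HIF-1β KIN. At an unadjusted p under 0.05 there were 6, and DESeq2 called 0. PCDHB2 differed by -0.17 (adjusted p = 0.884) and PCDHGA12 by -3.07 (adjusted p = 0.0712) on the log2 scale. Without HIF-2α KIN replicate 3 the count was 1, PCDHGA12.

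In the transgene lines several beta isoforms, and PCDHGC5 among the gamma isoforms, were higher than in WT. Over the 8 edited or transgene lines of the first batch and the 4 of the second, each against WT of its batch, 13 members were called in at least 1 line, 10 of them beta and 3 gamma genes. All 46 of the 452 member and line pairs tested that passed were higher, where 2.68% of the pairs over all genes tested were called higher, and PCDHB2 and PCDHB14 passed in 7 lines each. The comparisons within a batch share their WT libraries.

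In the HIF-1α line of the first batch 7 members were called, all beta genes and all higher, where 3.27% of genes tested were called higher. The median log2 change of the 37 tested members was 1.42, against -0.03 over all genes tested, and 31 of them had a positive change. PCDHB2, at 145, 190 and 127 normalized counts, PCDHB13, at 264, 342 and 216, and PCDHB14, at 145, 228 and 123, each had all libraries above WT. Their log2 changes were 2.23, 2.09 and 1.96 with edgeR adjusted p of 0.000161, 0.000147 and 0.000141.

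PCDHB8, PCDHB9, PCDHB10 and PCDHB16 rose from low levels in this line. PCDHB16 went from 0.826, 3.87 and 1.41 normalized counts in WT to 26.4, 40.3 and 34.6 (log2 change 4.01, SE 0.966, adjusted p = 0.00712). PCDHB8 had no read in WT and 12.3, 12.5 and 10.0 normalized counts in HIF-1α, at least 4.0-fold above the floor of 3 counts per library. The calls of PCDHB2, PCDHB13 and PCDHB14 were kept in all 6 fits that left out a library. In 5 of those fits they were the only members called, the exception being the fit without HIF-1α replicate 3 with 6 members.

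In the HIF-2α line 6 members were called, 4 beta and 2 gamma genes and all higher, where 3.78% of genes tested were. PCDHB14 stood at 248, 229 and 163 normalized counts and changed by 2.33 (SE 0.327, edgeR adjusted p = 9.32e-06). PCDHGC5, a C-type gamma isoform, went from 42.9, 56.1 and 60.4 in WT to 257, 225 and 209 (log2 change 2.11, SE 0.424, adjusted p = 0.000857). Both had every library far above every WT library.

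PCDHB9 had 11.6, 14.5 and 14.8 normalized counts in WT and 77.4, 69.4 and 43.6 in HIF-2α, a log2 change of 2.21 (SE 0.499, adjusted p = 0.00285). PCDHB2 changed by 1.64, PCDHB13 by 1.55 and PCDHGA10 by 1.17. PCDHB14 and PCDHGC5 were called whichever library was left out, and they were the only members without WT replicate 1, without WT replicate 3 or without HIF-2α replicate 1. The median log2 change of the tested members was 1.35, against -0.09 over all genes. PCDHGC3 made up 86.0% ± 0.896 of the gamma level in HIF-2α and 86.4% ± 2.86 in HIF-1α, against 93.6% ± 0.634 in WT, with its own normalized counts within 5890 to 6520 in both lines.

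**Figure D3:**
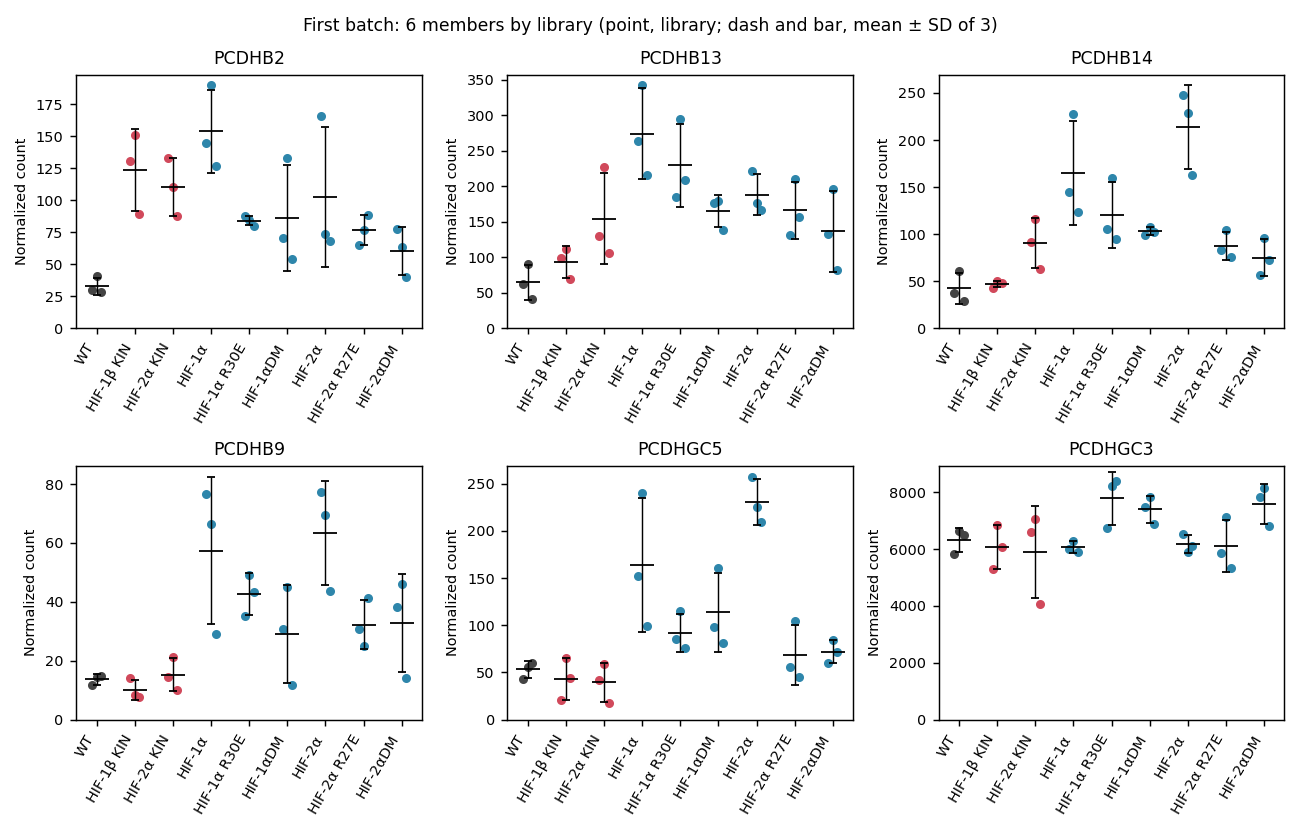
Normalized counts of 6 members in each library of the first batch (points), with the mean and SD of 3 libraries as dash and bar. PCDHB2 is at 87.9 to 151 in the clones, PCDHB14 at 163 to 248 and PCDHGC5 at 209 to 257 in HIF-2α, and the PCDHGC3 points of the groups overlap with those of WT or lie above them.

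The mutant forms, impaired in DNA binding or in pairing with HIF-1β, had 0 to 2 calls. HIF-1α R30E had 2, both higher, where 2.04% of genes tested were. PCDHB13 stood at 185, 295 and 208 normalized counts (log2 change 1.84, SE 0.345, edgeR adjusted p = 0.000846) and PCDHB14 at 105, 160 and 94.7 (1.50, SE 0.322, adjusted p = 0.0033). Libraries of this mutant lay above all WT libraries for both genes, and neither was called without WT replicate 3.

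In HIF-1αDM, HIF-2α R27E and HIF-2αDM edgeR called 0 members, where 0.453%, 0.449% and 0.440% of genes tested were higher. At an unadjusted p under 0.05 there were 9, 6 and 7 members, and DESeq2 called 2, 1 and 0. Same-numbered libraries of WT deviated together with those of HIF-1αDM and HIF-2α R27E, and with the block 2 (PCDHB14 and PCDHB13) and 1 (PCDHB13) were called. The beta genes still had median log2 changes of 0.96, 1.23 and 0.89, against 0, 0 and -0.01 for all genes. PCDHB2 had 70.7, 133 and 54.4 normalized counts in HIF-1αDM, 65.0, 77.0 and 88.3 in HIF-2α R27E and 77.5, 63.6 and 40.0 in HIF-2αDM, so that 1 HIF-2αDM library was not above the highest WT library.

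The functional and mutant forms were then compared directly. HIF-2α was higher than R27E for 2 members, where 2.09% of genes were, and higher than HIF-2αDM for the same 2, where 2.48% were. They were PCDHGC5 and PCDHB14. PCDHGC5 had 55.7, 105 and 45.1 normalized counts in R27E and 60.1, 84.4 and 71.5 in HIF-2αDM, all below the 209 to 257 of HIF-2α. The log2 differences were 1.75 (SE 0.419, edgeR adjusted p = 0.00686) and 1.67 (SE 0.418, adjusted p = 0.00878). PCDHB14, at 83.6, 104 and 75.5 in R27E and 56.7, 95.9 and 72.9 in HIF-2αDM, was below the 163 to 248 of HIF-2α, with differences of 1.28 (SE 0.314, adjusted p = 0.00833) and 1.50 (SE 0.317, adjusted p = 0.00186). Leaving out any of the 6 libraries left 0 or 1 of these calls. The count was 0 without HIF-2α replicate 1 in both comparisons, without HIF-2α replicate 2 or R27E replicate 1 or 3 against R27E, and without HIF-2αDM replicate 1 or 3 against HIF-2αDM.

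HIF-1α differed from HIF-1α R30E and from HIF-1αDM in 0 members by edgeR, where 1.42% and 1.21% of genes were higher in HIF-1α. At an unadjusted p under 0.05 there were 13 and 12, of which 12 and 12 were higher in HIF-1α, and DESeq2 called 1 and 0. The difference for PCDHB13 was 0.25 against R30E and 0.73 against HIF-1αDM, and for PCDHB10 2.15 (SE 0.555, adjusted p = 0.0237) and 1.23 (SE 0.528, adjusted p = 0.328). PCDHB10 had 48.2, 43.0 and 42.8 normalized counts in HIF-1α and 5.4, 13.1 and 11.1 in R30E, without overlap. It was not called, and the share of all genes without overlap was not computed.

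The second batch was extracted and prepared with other kits. In its HIF-1α line 11 members were higher, 9 beta and 2 gamma genes, where 3.90% of the 28724 genes tested were. All 15 tested beta genes had a positive change, with a median of 2.22 against 0.03 over all genes. PCDHB2 went from 33.7, 40.4 and 29.1 normalized counts in WT to 189, 135 and 146 (log2 change 2.17, SE 0.257, edgeR adjusted p = 3.72e-09). PCDHB16 went from 3.85, 0 and 3.01 to 39.5, 52.3 and 38.9 (4.24, SE 0.661, adjusted p = 1.62e-06), and PCDHB7 from 2.89, 2.43 and 4.01 to 38.6, 14.5 and 14.2 (2.82, SE 0.658, adjusted p = 0.000847). In each of these 3 genes every HIF-1α library was above every WT library. The 2 gamma genes were PCDHGC5 (1.76, SE 0.218, adjusted p = 1.09e-08) and PCDHGB7 (1.25, SE 0.193, adjusted p = 1.25e-06).

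HIF-2α of this batch had 7 members higher, 6 beta genes and PCDHGC5, where 5.45% of genes were. PCDHGC5 had 102, 52.6 and 60.1 normalized counts in WT and 397, 381 and 300 in HIF-2α, a change of 2.34 (SE 0.217, edgeR adjusted p = 2.12e-12). PCDHB9 had 15.4, 5.66 and 12.0 in WT and 92.2, 90.1 and 85.7 in HIF-2α (3.03, SE 0.375, adjusted p = 4.74e-09), and PCDHB7 rose by 2.79 (SE 0.662, adjusted p = 0.000607). None of the HIF-2α libraries overlapped with WT in these genes. PCDHGC5 made up 5.05% ± 0.592 of the gamma level here, against 1.11% ± 0.412 in WT.

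Both chimeras also had members above WT. HIF-2α/1α had 7, where 2.98% of genes were higher, and HIF-1α/2α had 4, where 5.10% were. Among the members called, PCDHB9 and PCDHB16 changed most in both. PCDHB9 stood at 97.0, 67.2 and 51.0 normalized counts in HIF-2α/1α (log2 change 2.71, SE 0.377, edgeR adjusted p = 1.9e-07) and at 34.8, 42.8 and 34.7 in HIF-1α/2α (1.77, SE 0.391, adjusted p = 0.000238). PCDHB16 stood at 4.73, 17.2 and 26.6 in HIF-2α/1α (2.83, SE 0.691, adjusted p = 0.00145) and at 13.3, 11.9 and 10.8 in HIF-1α/2α (2.40, SE 0.707, adjusted p = 0.00569). All of these libraries lay above the highest WT library. The count in HIF-1α/2α was 2 without WT replicate 2, with PCDHB2 and PCDHB9, and 2 without HIF-1α/2α replicate 1, with PCDHB14 and PCDHB9. It was 6 without HIF-1α/2α replicate 3.

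**Figure D4:**
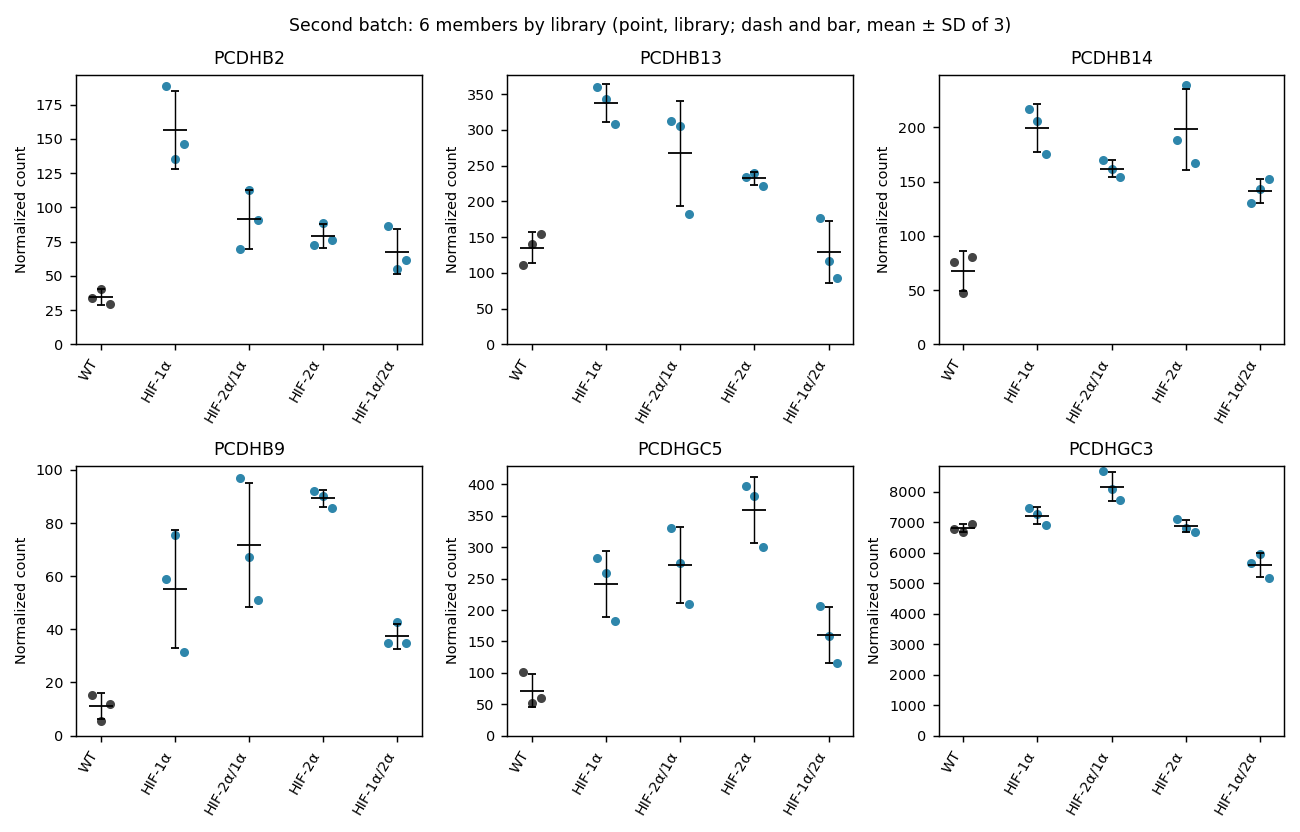
Normalized counts of 6 members in each library of the second batch (points), with the mean and SD of 3 libraries as dash and bar. PCDHB2, PCDHB14, PCDHB9 and PCDHGC5 are above WT in all 12 transgene libraries.

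Against HIF-1α, the HIF-1α/2α chimera was lower for 7 members and higher for 0, where 2.89% of genes were lower and 1.76% higher. These were PCDHB2, PCDHB3, PCDHB10, PCDHB11, PCDHB13, PCDHB16 and PCDHGB7, and 0 of the 15 tested beta genes had a positive difference. PCDHB3 had 47.3, 33.9 and 21.8 normalized counts in HIF-1α and 6.63, 9.52 and 4.34 in the chimera (log2 difference -2.32, SE 0.552, edgeR adjusted p = 0.000907). PCDHB11 had 65.6, 38.7 and 49.3 against 16.6, 11.9 and 3.25 (-2.23, SE 0.511, adjusted p = 0.000557). PCDHB13, with 360, 343 and 308 against 177, 117 and 93.3, differed by -1.37 (SE 0.191, adjusted p = 1.35e-07). All 7 genes, chosen because they were called, had every chimera library below every HIF-1α library. The share of all genes separated in this way was not computed.

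HIF-2α was lower than HIF-1α for 1 member, PCDHB3, where 2.14% of genes were lower and 1.64% higher. PCDHB3 had 10.9, 12.7 and 5.87 normalized counts in HIF-2α, below all HIF-1α libraries (log2 difference -1.79, SE 0.533, edgeR adjusted p = 0.00968), and 0 members were called with DESeq2's size factors in edgeR. The count was also 0 without HIF-1α replicate 1 and without HIF-2α replicate 1 or 3, and without HIF-1α replicate 2 or HIF-2α replicate 2 it was 1, PCDHB2. PCDHB2 differed by -0.98 (SE 0.241, adjusted p = 0.00146), just under the fold threshold. HIF-2α/1α differed from HIF-2α in 0 members by edgeR, where 1.39% of genes were higher in HIF-2α/1α. At an unadjusted p under 0.05 there were 6, and DESeq2 called 0.

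**Figure D5:**
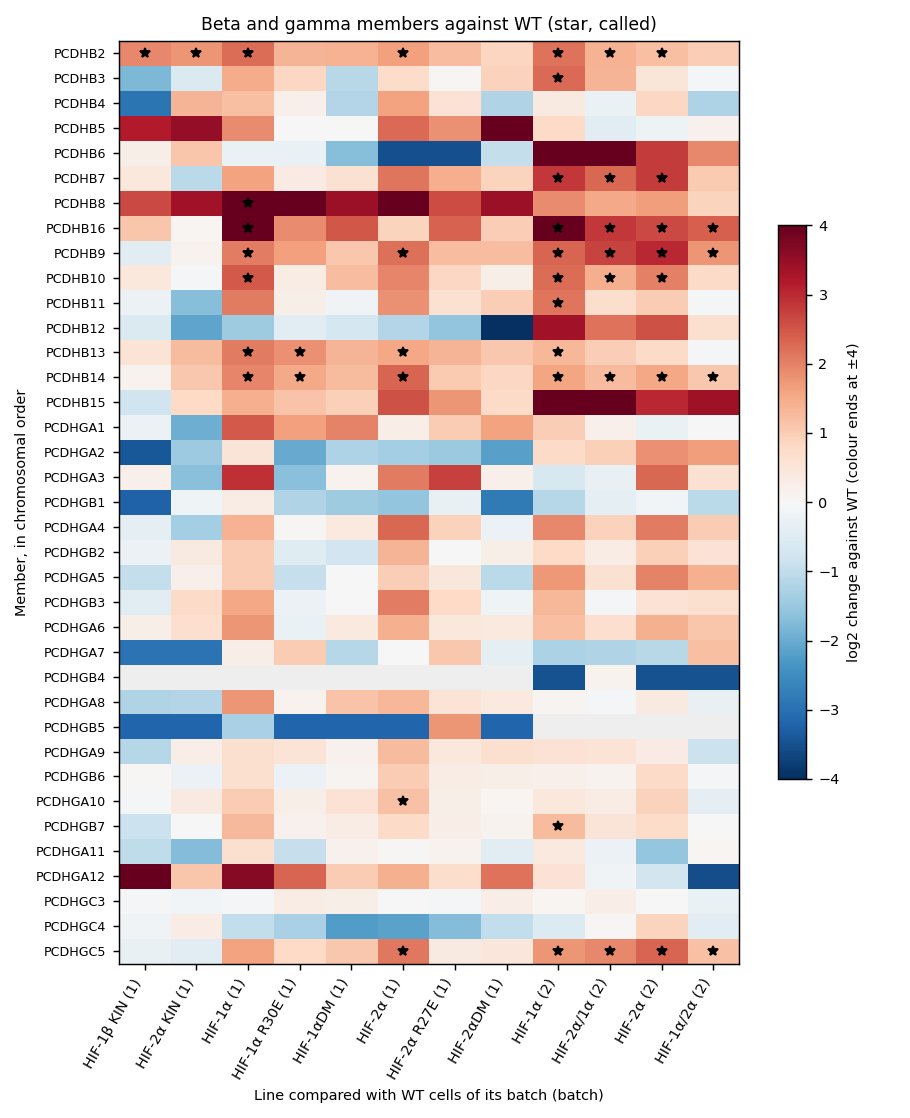
Log2 change of each beta and gamma member against WT cells of the same batch (colour, ending at ±4) in each knock-in clone and transgene line, with genes in chromosomal order, a star on each called member and members that were not tested in grey. PCDHB2 is the starred member of both clones, and PCDHGC5 is starred in HIF-2α of both batches.

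HIF-1α and HIF-2α were present in both batches, so the change against WT could be compared between batches. Of 39 members 0 differed in either (edgeR, smallest adjusted p 0.896 for HIF-1α and 0.327 for HIF-2α), with 5 members each at an unadjusted p under 0.05, and 1 and 0 of all 26763 genes differed. DESeq2 was not run on this contrast. The effective number of beta isoforms was 5.72 ± 0.381 in WT of the second batch and 6.06 to 7.96 in its 12 transgene libraries.

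Genes with known parts in protocadherin choice were read beside the members. The list held 23 regulators (CTCF, cohesin subunits and loaders, SMCHD1, DNA and histone methylation enzymes), all tested. At most 2 were called higher and 1 lower in a line against WT. Over the 12 comparisons this made 5 calls higher and 3 lower. Of all genes tested 0.393% to 5.45% were called higher in a comparison, and 1 to 770 genes lower. The counts are not read as a result about the regulators. The genes called were DNMT3A, DNMT3B and TET1. DNMT3A, a de novo DNA methyltransferase, was higher in HIF-2α KIN (log2 change 1.18, SE 0.299, edgeR adjusted p = 0.00956), in HIF-1α of the second batch (1.20, SE 0.142) and in both chimeras (1.14 in HIF-2α/1α and 1.12 in HIF-1α/2α). TET1, which oxidises methylated cytosine, was higher in HIF-1α of the second batch too (1.22, SE 0.294). DNMT3B, the other de novo methyltransferase, was lower in HIF-2α of both batches (-1.19 and -1.18) and in HIF-1α/2α (-1.46). At an unadjusted p under 0.05 there were 1 to 5 of the 23 in a line of the first batch and 14 to 19 in a line of the second. Of the 17 tested genes beside or between the clusters, 0 to 6 and 7 to 12 reached this level in the same batches. No CTCF or cohesin gene on the list was called. The cohesin subunit SMC3 and the cohesin regulators PDS5A and WAPL, singled out after their values were seen, were below the fold threshold. Their log2 changes were -0.39, -0.46 and -0.41 in HIF-2α of the second batch (edgeR adjusted p 2.69e-06, 1.17e-09 and 1.97e-07). Small changes with low p were not particular to them there. Among genes beside the clusters DIAPH1 changed by -0.61 and ZMAT2 by 0.30 (edgeR adjusted p 9.23e-15 and 1.55e-05). The share of all genes at such p was not computed.

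Neighbours and relatives of the members were counted in the same way. Of 18 genes beside or between the clusters 17 were tested, and edgeR called 0 in the 12 comparisons with WT, with 0 to 12 of them at an unadjusted p under 0.05 in a comparison. The 6 pseudogenes of the clusters, of which 2 to 5 could be tested, also gave 0 calls, with 0 at an unadjusted p under 0.05. DESeq2 was not run on these lists. Among 11 non-clustered protocadherins, genes of the same family at other loci, 6 to 8 were tested and up to 3 were higher in a transgene line, with 0 called in a knock-in clone by edgeR (3 and 2 at an unadjusted p under 0.05), where the shares over all genes were the 0.393% to 5.45% given above. PCDH10 was higher in HIF-1α (5.07 and 3.15 in the first and second batch) and in HIF-2α (4.92 and 3.47), PCDH1 in the same lines (4.43, 2.85, 4.19 and 3.45), and PCDH7 in HIF-1α (2.08 and 1.47). In the mutant forms all 3 were higher in R30E (4.71, 4.10 and 2.02), PCDH1 and PCDH7 in HIF-1αDM (3.26 and 1.47) and PCDH1 in R27E (3.14). PCDH1 was higher in both chimeras (2.44 in HIF-2α/1α and 2.36 in HIF-1α/2α), PCDH7 in HIF-2α/1α (1.57) and PCDH10 in HIF-1α/2α (4.36).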

How the data were processed

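RNA-seq counts were analysed for 42 libraries of 786-O cells in 2 batches, with 3 biological replicates per group. The authors aligned reads to hg38 with STAR and kept unique mappers, and the deposited counts per gene were made with htseq-count in union mode without strand (HTSeq 0.11.1 and STAR 2.7 per the submitters' processing notes). Comparisons were fitted per batch over all of its groups with edgeR 4.0.16 (TMM factors, quasi-likelihood test) in R 4.3.3. Tested genes had a mean normalized count of 0.5 or more and were called at an adjusted p of at most 0.01 with a fold of at least 2. The SE is the log2 change divided by the square root of F, and intervals span 1.96 SE each side. Countable lengths came from GENCODE release 44, whereas the authors counted on an earlier release. DESeq2 1.42.0, other size factors, no filter, a replicate block, only the groups compared and leaving out each library were tried. Floors of 3 counts cover counting error only. The fits were tried on simulated counts of 2 groups in which only genes with more reads than most members were changed. Low-count members were thus not covered.

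Members, lists and named genes were chosen with earlier results of these data known. By rule, the members named were those called in a knock-in clone against WT and the 2 with the highest level in WT of each cluster and batch. In each other comparison they were the 2 called members with the largest change in each direction. Members outside this rule were also named, among them PCDHGA12, PCDHB10, PCDHB4 and PCDHB15. Pairing was checked by the correlation of same-numbered libraries' deviations from their group means, with every pair above 0.1 for WT against both clones, HIF-1αDM, HIF-2α R27E and HIF-1α of the first batch, for the clones against each other and for HIF-2α against R27E. No other comparison was treated as paired.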

Additional observations from a re-analysis of the deposited data

How the results depend on the processing

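The beta genes had 197 to 1142 reads together in a library, which limits the precision of their values. With DESeq2 the counts of members called became 2 in HIF-1β KIN, 3 in HIF-2α KIN, 12 in HIF-1α, 2 in HIF-1αDM, 10 in HIF-2α and 1 in R27E against WT of the first batch, 6 and 5 in HIF-1β KIN and HIF-2α KIN against the transgene lines, 1 for HIF-1α against R30E and 4 for HIF-2α against HIF-2αDM. Without the filter they became 2 in HIF-1β KIN, 2 in HIF-2α KIN, 1 in HIF-1αDM and 1 in R27E against WT, 6 in HIF-1β KIN against the transgene lines and 1 for HIF-2α against R27E. The replicate block gave 2, 3, 2 and 1 in HIF-1β KIN, HIF-2α KIN, HIF-1αDM and R27E. Where the numbers do not pair the libraries, as in all of the second batch, the block gave 1 in HIF-2αDM, 6 and 4 in HIF-1β KIN and HIF-2α KIN against the transgene lines, 2 for HIF-1α against R30E, 4 for HIF-2α against HIF-2αDM and 0 for HIF-2α against HIF-1α of the second batch. The block moved no other count past 1.5 times. DESeq2's size factors in edgeR gave 0 for HIF-2α against HIF-1α. With the groups compared alone R30E had 1, HIF-2α against R27E 0 and HIF-2α against HIF-1α 2. With shares of reads, not corrected for length, the effective number of beta members was 6.58 in WT and 4.93 in HIF-1β KIN, and that of gamma members 1.42 in HIF-1β KIN. The cause of these moves was not tested.

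Leaving out 1 library at a time gave 0 to 1 members in HIF-1β KIN, 0 to 2 in HIF-2α KIN, 3 to 6 in HIF-1α, 0 to 2 in R30E, 2 to 5 in HIF-2α and 0 in HIF-1αDM, R27E and HIF-2αDM against WT of the first batch. It gave 0 to 1 between the clones, in either clone against the transgene lines, for HIF-1α against R30E and for HIF-2α against R27E or HIF-2αDM, and 0 for HIF-1α against HIF-1αDM. In the second batch it gave 8 to 12 in HIF-1α, 5 to 7 in HIF-2α/1α, 7 to 8 in HIF-2α and 2 to 6 in HIF-1α/2α against WT, 0 to 2 for HIF-2α against HIF-1α, 5 to 6 for HIF-1α/2α against HIF-1α and 0 for HIF-2α/1α against HIF-2α. The effective number of beta members stayed within 6.81 to 6.94 in WT, 3.95 to 4.43 in HIF-1β KIN and 4.42 to 4.58 in HIF-2α KIN. That of gamma members stayed within 1.44 to 1.49, 1.39 to 1.40 and 1.44 to 1.53. The log2 change of PCDHGC3 ran from -0.14 to 0.03 in HIF-1β KIN and from -0.25 to 0.11 in HIF-2α KIN against WT, from -0.20 to 0.17 between the clones (also 0.04) and from -0.36 to 0.00 for HIF-2α KIN against the transgene lines. The sign turned without HIF-1β KIN replicate 1 or 2 or HIF-2α KIN replicate 3. That of PCDHGA12 in HIF-2α KIN ran from 2.45 to -3.32, the latter without replicate 3, the library with all of its reads there. The effective number of alpha members could not be given, for lack of reads. Comparisons of functional with mutant forms and of lines of the second batch with each other were added after seeing the data.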
